A study of Mus musculus with 5 samples.

Results

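The genes described are 72 of the 22026 symbols measured, the subunits of RNA polymerases I, II and III and of the general transcription factors, taken by name as every symbol that begins with Polr1, Polr2 or Polr3 and a letter from a to l, with Taf and a number, or with Gtf2 or Gtf3. RNA-seq gave transcript levels in 5 libraries, each of mouse 4-cell embryos (strain B6D2F1) from nuclear transfer, the placing of a donor nucleus into an enucleated oocyte. There was 1 library per group, so no value has a replicate error and no difference has a test. The groups were an untreated control, a luciferase treatment used here as a second control, a knockdown of the histone variant H3.3, and the same knockdown with added mRNA of either H3.3 or the replication-coupled histone H3.2. All 3 of the last groups carry the knockdown. For the last library the title gives H3.2 mRNA but the treatment tag gives H3.3 mRNA, and it is called here by its title. The source name reads SCNT in 2 libraries, luciferase and H3.2 mRNA, and NT in the remaining 3, a split that any comparison across them carries. The donor cell type and the number of embryos pooled are not stated in the sources used here.

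Each RNA polymerase is built around its largest and second-largest subunit, which together form the catalytic centre. Polymerase I transcribes the ribosomal RNA precursor, polymerase II the messenger RNAs, and polymerase III transfer RNAs and the 5S ribosomal RNA. Around these large subunits sit smaller ones, some of them common to all polymerases. General transcription factors bring each polymerase to its promoters: TFIID, made of the TATA-binding protein and its associated factors (TAFs), with TFIIA, TFIIB, TFIIE, TFIIF and TFIIH for polymerase II, the SL1 complex for polymerase I, and TFIIIA and TFIIIC for polymerase III. In the early mouse embryo these complexes come first from the oocyte and then from the embryo's own genome.

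Levels are in FPKM, a read count divided by transcript length and by the size of the library, so genes can be compared per length. Differences are given as differences of log2(FPKM + 1) and called at 2 or more, a 4-fold difference, and this scale understates differences of genes at low values. The sequencing depth is unknown. FPKM are shares of a library, so fewer transcripts in each cell and fewer cells that hold them cannot be told apart. Together H3f3a and H3f3b, the genes of H3.3, stood in the knockdown at 12.6% and 11.6% of their levels in untreated and luciferase embryos, and at 7.33% to 8.86% of them in both mRNA libraries. The sum was 664 FPKM in the knockdown and 467 FPKM in the library labelled H3.3 mRNA, so no added H3.3 mRNA is visible in these values, and the mRNA libraries are named by their labels only. Of 10 oocyte and early embryo markers, 9 or 10 were above 0 in each library, with summed levels from 8219.9 to 25276 FPKM, most of it Dppa3 and Obox6. Some other oocyte markers were highest in the untreated library. Bmp15 and Nlrp5 were instead highest in the library labelled H3.2 mRNA, at 111.7 and 109.7 FPKM, against 68.2 and 100.7 FPKM untreated. The oocyte growth factor gene Gdf9 stood at 1332 FPKM untreated, 81.2 FPKM with luciferase and 550.2 FPKM in the knockdown, and the oocyte linker histone gene H1foo at 1925, 74.8 and 351 FPKM in the same order. Zar1 stood at 639, 5.76 and 173 FPKM and Oosp1 at 349.9, 0 and 118 FPKM. These transcripts thus differed between the libraries compared here, and their part in the differences of the members was not tested. Of 8 fibroblast markers, 1 was above 0 in the untreated library (Vim), 3 in the luciferase library and none in the others, with summed levels from 0 to 68.7 FPKM. Collagen genes Col1a1 and Col3a1 were listed at 0 in all 5 libraries. Of 7 cumulus cell markers, at most 1 was above 0 in any library, with sums from 0 to 4.85 FPKM.

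All 72 genes passed the filter of a mean of at least 1 FPKM, together with 13144 genes in all. The median of their mean levels was 266 FPKM, against 49.1 FPKM over all genes that passed. In the knockdown, Polr1a and Polr2a, the largest subunits of polymerases I and II, and Gtf2a1l passed the mark downward against each control, and Taf7l passed it upward, with Gtf2a1l and Taf7l resting on libraries listed at 0. Those were 3 lower (4.17%) and 1 higher (1.39%) of 72, beside 6.35% lower and 4.98% higher over all genes, so the shares of the members lay under the background. Upper-quartile scaling gave 2 lower and 1 higher, and quantile normalization 1 and 1. Of the 6532 genes that averaged 50 FPKM or more, 5.76% were called in either direction, beside 2 of 60 members (3.33%). This second filter was chosen after the data were seen. Both comparisons share the knockdown library. In the plot of the knockdown's differences from each control, the other members drawn pass the dashed 4-fold lines against 1 control at most.

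**Figure D1:**
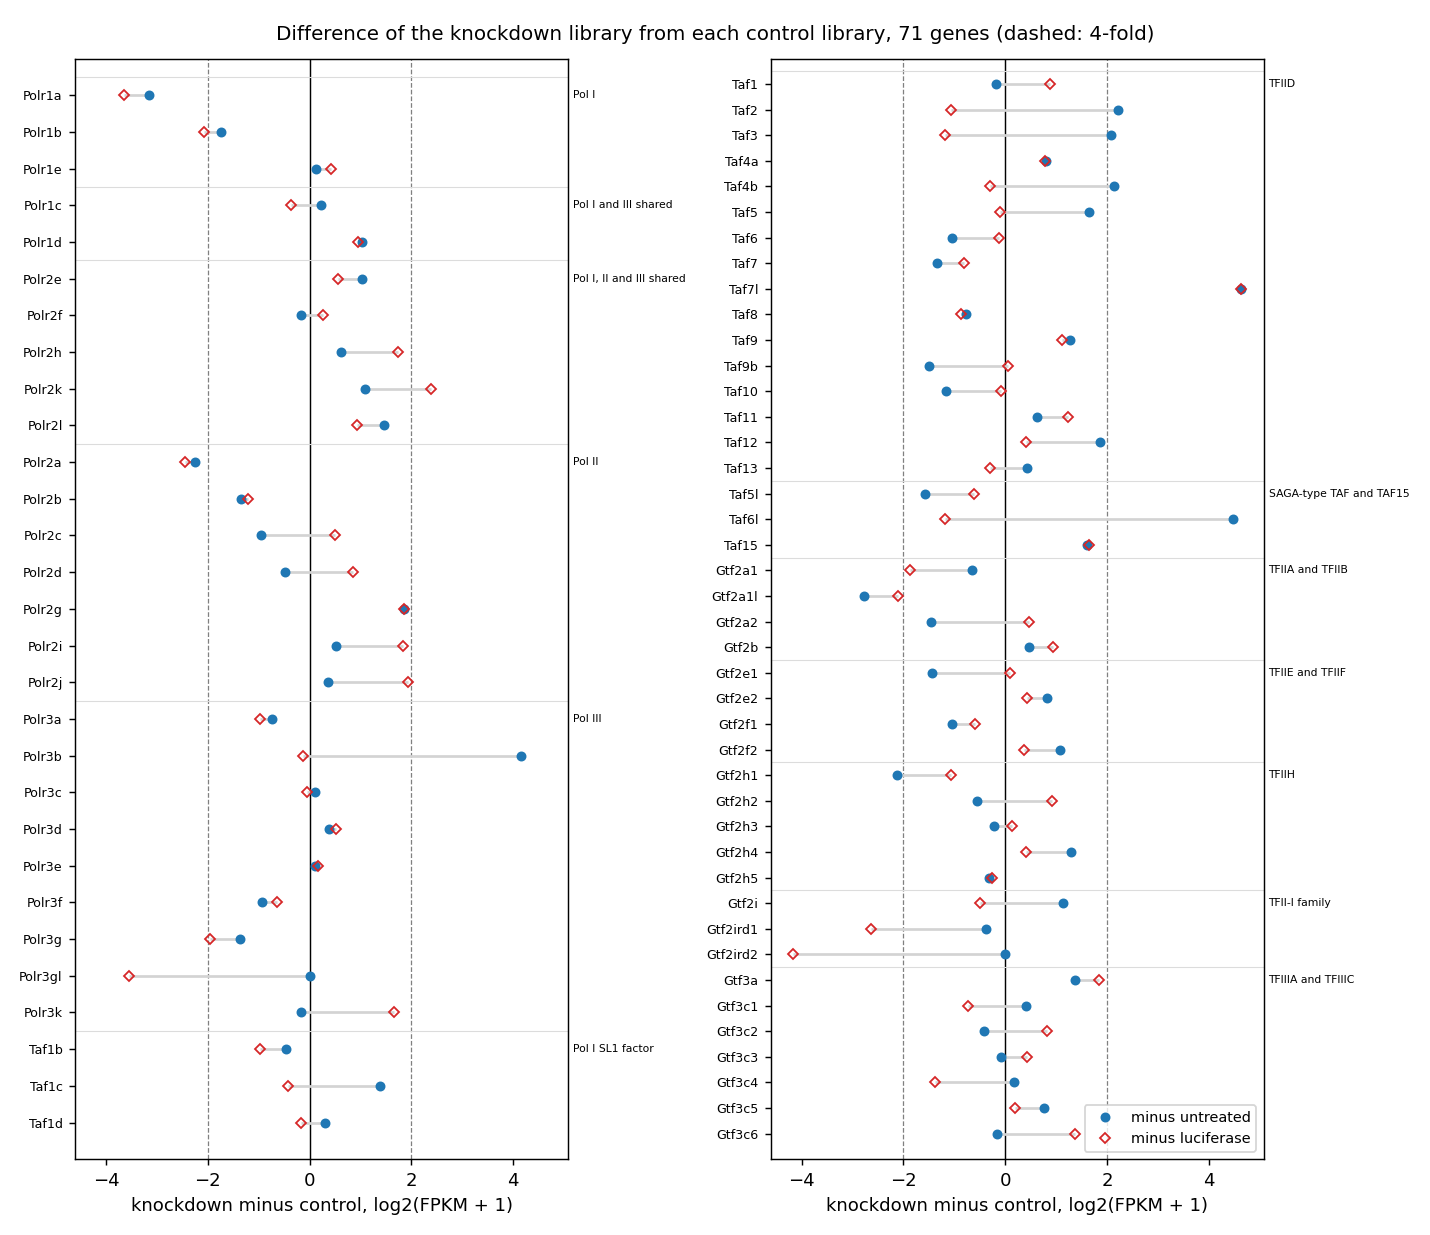
Differences of log2(FPKM + 1) between the H3.3 knockdown library and the untreated (filled circles) or luciferase library (open diamonds) for 71 of the 72 genes, grouped by complex, 1 library per group and no error. A bar joins both values of a gene and dashed lines mark 4-fold. Polr1a and Polr2a lie left of -2 and Taf7l right of 2 with both symbols, while Polr3b and Taf6l have symbols far apart.

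The catalytic subunits of polymerases I and II were lower in the knockdown than in any other library. Polr1a, the largest subunit of polymerase I, stood at 92.8 FPKM in untreated embryos, 130.1 FPKM in those with luciferase, 9.52 FPKM in the knockdown, 195 FPKM in the library labelled H3.3 mRNA and 114 FPKM in that labelled H3.2 mRNA. The knockdown was low and the other 4 libraries lay at or above the untreated level. Polr1a differed by -3.16 from the untreated control and by -3.64 from luciferase, while the controls differed by 0.48. Polr1a passed 4-fold against both controls under every alternative tried for it, with values from -3.27 to -2.40 for the untreated and from -3.91 to -2.84 for the luciferase control. Polr1b, the second-largest subunit, stood at 262 FPKM in untreated embryos, 330.4 FPKM in those with luciferase, 77.4 FPKM in the knockdown, 398 FPKM in the library labelled H3.3 mRNA and 359 FPKM in that labelled H3.2 mRNA. Its differences were -1.75 and -2.08, so it passed against the luciferase library only, and not there with a pseudocount of 10 (-1.96), quantile normalization (-1.94) or the length trend removed (-1.90). Polr1e, a subunit of the polymerase I periphery, was highest in the knockdown, at 441 FPKM untreated, 358 FPKM with luciferase, 480.2 FPKM in the knockdown, and 225 and 263 FPKM in those labelled H3.3 and H3.2 mRNA. Its differences from the untreated and luciferase controls were small, 0.12 and 0.42. The level of Polr1a as a share of that of Polr1e, a ratio within a library that a scaling by library does not change, was 21.1% and 36.4% in the untreated and luciferase libraries, 1.98% in the knockdown, 86.6% in the library labelled H3.3 mRNA and 43.3% in that labelled H3.2 mRNA. As a share of Polr1b it fell less, from 35.4% and 39.4% in the controls to 12.3% in the knockdown. Neither ratio was adjusted for transcript length.

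Polr2a, the largest subunit of polymerase II and the carrier of its repeated C-terminal domain, stood at 109 FPKM in untreated embryos, 124 FPKM in those with luciferase, 22.0 FPKM in the knockdown, 55.4 FPKM in the library labelled H3.3 mRNA and 103 FPKM in that labelled H3.2 mRNA. It was lowest in the knockdown, next lowest in the library labelled H3.3 mRNA, and between 103 and 124 FPKM in the remaining 3. The differences from the untreated and luciferase libraries were -2.25 and -2.45. They fell short of 4-fold against the untreated library with upper-quartile scaling (-1.94), with quantile normalization (-1.85) and with a pseudocount of 10 (-1.89), and against the luciferase library with the trend on transcript length removed (-1.98). Polr2b, the second-largest subunit, stood at 936 FPKM in untreated embryos, 852 FPKM in those with luciferase, 368 FPKM in the knockdown, 736 FPKM in the library labelled H3.3 mRNA and 1232 FPKM in that labelled H3.2 mRNA. Here too the knockdown was the lowest library, with differences of -1.35 and -1.21 from the controls, under the 4-fold mark. The level of Polr2a was 2.20% of the median of the other polymerase II subunits in the knockdown, against 10.04% and 19.4% in the untreated and luciferase libraries and 6.80% and 20.8% in those labelled H3.3 and H3.2 mRNA. No ratio of Polr2a to other subunits was adjusted for transcript length.

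These 4 genes, the largest and second-largest subunits of polymerases I and II, were among the 14 members lowest in the knockdown, as was Polr3a. The 250 bases before their annotated starts are shown. They are from the RefSeq promoter table on GRCm38.p6, a later build than the mm9 of the expression files, printed 5′ to 3′ along the gene. Capitals mark matches on either strand to 3 short motifs that do not overlap in these windows. One is the TATA box TATAAA. Another is CCAAT. The last is the GC box, searched as GGGCGG.
Polr1a, chr6:71908803-71909052, plus strand: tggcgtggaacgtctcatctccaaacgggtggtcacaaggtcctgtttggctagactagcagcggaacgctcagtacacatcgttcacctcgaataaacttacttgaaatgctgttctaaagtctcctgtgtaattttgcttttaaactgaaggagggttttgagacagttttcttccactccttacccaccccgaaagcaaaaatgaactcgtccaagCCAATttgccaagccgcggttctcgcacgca
Polr1b, chr2:129100746-129100995, plus strand: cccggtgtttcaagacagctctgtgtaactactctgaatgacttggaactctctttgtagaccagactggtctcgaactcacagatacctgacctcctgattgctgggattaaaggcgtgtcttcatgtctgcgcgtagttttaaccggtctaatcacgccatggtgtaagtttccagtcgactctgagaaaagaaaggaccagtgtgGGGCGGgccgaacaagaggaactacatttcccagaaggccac
Polr2a, chr11:69758634-69758883, minus strand: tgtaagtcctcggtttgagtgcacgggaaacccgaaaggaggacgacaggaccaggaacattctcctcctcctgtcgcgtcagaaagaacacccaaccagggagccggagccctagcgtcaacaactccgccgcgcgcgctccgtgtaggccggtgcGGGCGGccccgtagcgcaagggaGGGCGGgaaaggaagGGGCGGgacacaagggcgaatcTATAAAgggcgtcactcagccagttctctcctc
Polr2b, chr5:77310234-77310483, plus strand: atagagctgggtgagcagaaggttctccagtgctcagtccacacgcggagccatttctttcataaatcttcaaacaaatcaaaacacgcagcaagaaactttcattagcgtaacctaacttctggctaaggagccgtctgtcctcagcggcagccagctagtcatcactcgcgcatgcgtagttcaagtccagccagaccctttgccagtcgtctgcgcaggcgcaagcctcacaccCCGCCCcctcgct
Polr2a held TATAAA starting 33 bases before the gene start and GGGCGG at 3 places, Polr1a held CCAAT starting 31 bases before it, and Polr1b and Polr2b each held GGGCGG once. Of 32851 RefSeq promoter windows of this length, 12.4% held TATAAA, 33.8% CCAAT and 32.7% GGGCGG. Of the 61 members with an entry, taking the first listed start, 10 held TATAAA (16.4%), 18 CCAAT (29.5%) and 35 GGGCGG (57.4%). The 32851 windows were not limited to first starts, so these shares are not counted alike. The 4 genes thus shared no single motif of the 3. The content of G and C was 62.8% before Polr2a and from 47.6% to 54.0% before the other 3.

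**Figure D2:**
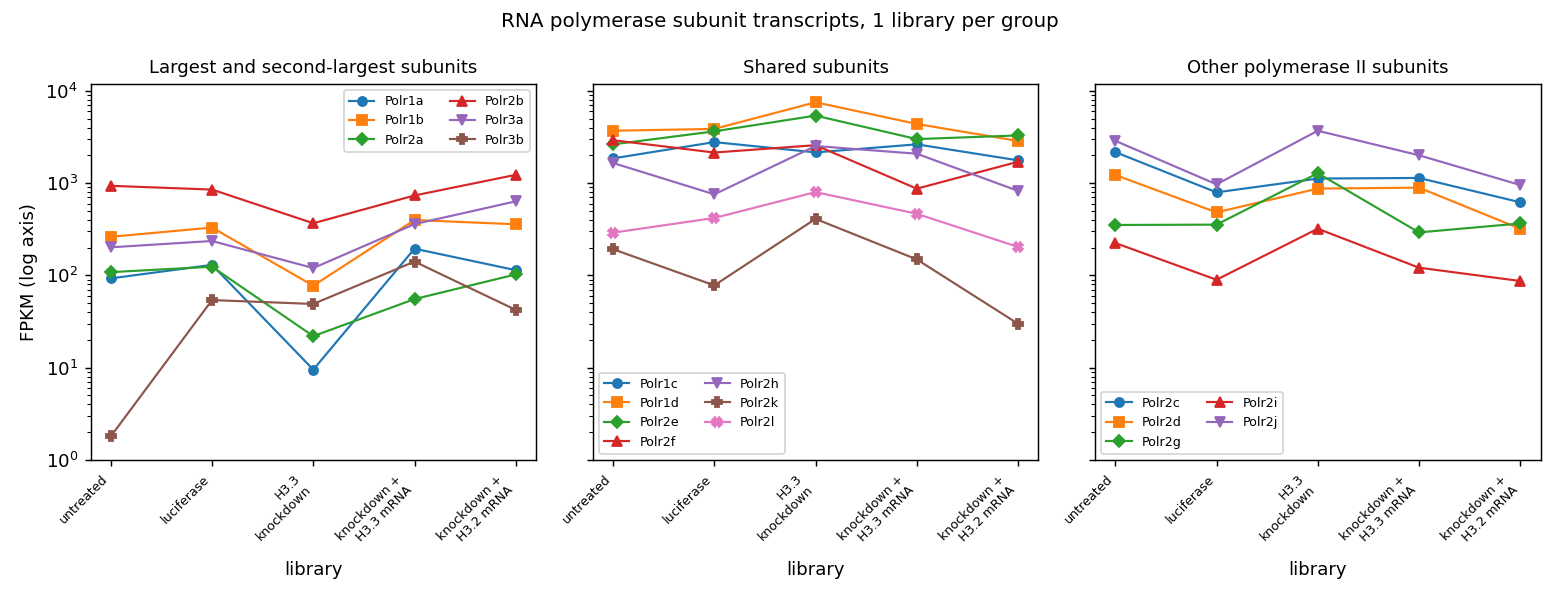
FPKM (log axis) of polymerase subunits in the 5 libraries, 1 library per point, with lines that only join the points of a gene. The left panel holds the largest and second-largest subunits, which dip in the knockdown except for Polr3b, and the other panels hold shared and further polymerase II subunits, of which Polr1d, Polr2e, Polr2g, Polr2h, Polr2i, Polr2j, Polr2k and Polr2l peak there.

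None of the smaller polymerase II subunits was lowest in the knockdown. Polr2g, which forms the stalk of the enzyme with Polr2d, stood at 352 FPKM in untreated embryos, 355 FPKM in those with luciferase, 1283 FPKM in the knockdown, 293 FPKM in the library labelled H3.3 mRNA and 366 FPKM in that labelled H3.2 mRNA. The knockdown was high and the other 4 libraries lay between 293 and 366 FPKM. The differences were 1.86 and 1.85 from the controls, just under 4-fold, and 1.22 and 0.69 with the length trend removed. Polr2d itself stood at 1227 FPKM untreated, 483 FPKM with luciferase, 874 FPKM in the knockdown, and 894 and 321 FPKM in those labelled H3.3 and H3.2 mRNA, with the knockdown between the controls. Polr2i, a small subunit that bears on start site choice and elongation, stood at 225 FPKM untreated, 89.7 FPKM with luciferase, 321 FPKM in the knockdown, and 121 and 87.0 FPKM in those labelled H3.3 and H3.2 mRNA. Polr2j, an assembly subunit that pairs with Polr2c, stood at 2881 FPKM untreated, 972 FPKM with luciferase, 3702 FPKM in the knockdown, and 2007 and 955 FPKM in those labelled H3.3 and H3.2 mRNA. Both were highest in the knockdown, with the untreated library next. Polr2c stood at 2174 FPKM untreated, 795 FPKM with luciferase, 1123 FPKM in the knockdown, and 1139 and 621 FPKM in those labelled H3.3 and H3.2 mRNA, highest in the untreated library. The level of Polr2a as a share of Polr2g was 1.71% in the knockdown and between 18.9% and 35.0% elsewhere. As a share of Polr2b it differed less, at 5.98% in the knockdown and 11.6% and 14.6% in the untreated and luciferase libraries. Those labelled H3.3 and H3.2 mRNA gave 7.53% and 8.32%.

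Of the 5 subunits that the 3 polymerases have in common, 4 were highest in the knockdown. Polr2e stood at 2635 FPKM untreated, 3647 FPKM with luciferase, 5400.2 FPKM in the knockdown, and 3007 and 3292 FPKM in those labelled H3.3 and H3.2 mRNA. Polr2h stood at 1656 FPKM untreated, 757 FPKM with luciferase, 2528 FPKM in the knockdown, and 2087 and 825 FPKM in those labelled H3.3 and H3.2 mRNA. Polr2k and Polr2l are zinc-binding and among the smallest subunits. Polr2k stood at 192 FPKM in untreated embryos, 78.0 FPKM in those with luciferase, 410.1 FPKM in the knockdown, 149 FPKM in the library labelled H3.3 mRNA and 29.9 FPKM in that labelled H3.2 mRNA. The knockdown was the highest and H3.2 mRNA the lowest library for Polr2k, and its difference from the luciferase library, 2.38, passed 4-fold, whereas that from the untreated library was 1.09. With the length trend removed, these values were 1.03 and 0.31. Polr2l stood at 291 FPKM untreated, 419 FPKM with luciferase, 801 FPKM in the knockdown, and 466 and 204 FPKM in those labelled H3.3 and H3.2 mRNA. The exception was Polr2f, at 2924 FPKM untreated, 2149 FPKM with luciferase, 2582 FPKM in the knockdown, and 872 and 1707 FPKM in those labelled H3.3 and H3.2 mRNA, whose difference from each control changed sign with the scaling. Polr1d, an assembly subunit of polymerases I and III, had the highest level of all members and stood at 3703 FPKM in untreated embryos, 3876 FPKM in those with luciferase, 7537 FPKM in the knockdown, 4386 FPKM in the library labelled H3.3 mRNA and 2870.1 FPKM in that labelled H3.2 mRNA. Its partner Polr1c stood at 1856 FPKM untreated, 2789 FPKM with luciferase, 2156 FPKM in the knockdown, and 2637 and 1768 FPKM in those labelled H3.3 and H3.2 mRNA, with the knockdown between the controls.

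In polymerase III, the largest subunit was lowest in the knockdown and highest in the library labelled H3.2 mRNA. Polr3a stood at 202 FPKM in untreated embryos, 236 FPKM in those with luciferase, 120.2 FPKM in the knockdown, 360 FPKM in the library labelled H3.3 mRNA and 636 FPKM in that labelled H3.2 mRNA. The differences of the knockdown, -0.74 and -0.97, were under 2-fold, and that of the H3.2 mRNA library from the knockdown was 2.39. Polr3b, the second-largest subunit, had another pattern, at 1.80 FPKM in untreated embryos, 54.0 FPKM in those with luciferase, 49.1 FPKM in the knockdown, 141 FPKM in the library labelled H3.3 mRNA and 42.3 FPKM in that labelled H3.2 mRNA. The untreated library stood apart, and its difference from the knockdown, 4.16, was close to its difference from the luciferase library, 4.30. Polr3g, a subunit known for high levels in pluripotent cells, stood at 365 FPKM in untreated embryos, 549.8 FPKM in those with luciferase, 141 FPKM in the knockdown, 495 FPKM in the library labelled H3.3 mRNA and 411 FPKM in that labelled H3.2 mRNA. It was lowest in the knockdown, -1.36 and -1.95 from the controls, and the other 4 libraries lay between 365 and 549.8 FPKM. Its paralog Polr3gl, which takes its place in many differentiated cells, was listed at 0 in 4 libraries and stood at 10.7 FPKM in the luciferase library.

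Further polymerase III subunits were not called against either control. Polr3f, which binds Polr3g and Polr3c, stood at 38.7 FPKM untreated, 31.1 FPKM with luciferase, 19.6 FPKM in the knockdown, and 25.3 and 77.2 FPKM in those labelled H3.3 and H3.2 mRNA. Polr3c stood at 439.8 FPKM untreated, 492 FPKM with luciferase, 474 FPKM in the knockdown, and 262 and 453 FPKM in those labelled H3.3 and H3.2 mRNA, and Polr3d and Polr3e, a pair with a part in initiation, stood at 627 and 56.1 FPKM in the knockdown, against 482 and 52.2 FPKM in the untreated and 435 and 50.2 FPKM in the luciferase library. Polr3k, which takes part in termination, stood at 176 FPKM untreated, 49.0 FPKM with luciferase, 157 FPKM in the knockdown, and 32.1 and 53.1 FPKM in those labelled H3.3 and H3.2 mRNA, and the untreated and knockdown libraries stood above the other 3.

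Of TFIID, 16 members were measured. Several TAFs set the untreated library apart from the other 4. Taf2, which contacts DNA at the start site, stood at 25.5 FPKM in untreated embryos, 257 FPKM in those with luciferase, 122 FPKM in the knockdown, 235 FPKM in the library labelled H3.3 mRNA and 176 FPKM in that labelled H3.2 mRNA. Taf3, a reader of methylated histone H3, stood at 4.64 FPKM in untreated embryos, 53.1 FPKM in those with luciferase, 22.8 FPKM in the knockdown, 23.7 FPKM in the library labelled H3.3 mRNA and 67.9 FPKM in that labelled H3.2 mRNA. Taf4b, a paralog of Taf4a with a role in the germline, stood at 21.6 FPKM in untreated embryos, 122 FPKM in those with luciferase, 99.0 FPKM in the knockdown, 108 FPKM in the library labelled H3.3 mRNA and 239 FPKM in that labelled H3.2 mRNA. In these 3 genes the untreated library was lowest, and the knockdown was at least 4-fold above it but below the luciferase library. The mark was missed by Taf2 (1.90), Taf3 (1.16) and Taf4b (1.78) with a pseudocount of 10 and by Taf3 with quantile normalization (1.21). Taf5, the WD-repeat scaffold, stood at 8.50 FPKM untreated, 30.8 FPKM with luciferase, 28.6 FPKM in the knockdown, and 45.05 and 35.4 FPKM in those labelled H3.3 and H3.2 mRNA, also lowest in the untreated library. Taf4a stood at 41.3 FPKM untreated, 41.9 FPKM with luciferase, 72.5 FPKM in the knockdown, and 71.4 and 125 FPKM in those labelled H3.3 and H3.2 mRNA, and Taf1, the largest TAF, at 67.1 FPKM untreated, 31.8 FPKM with luciferase, 59.2 FPKM in the knockdown, and 67.6 and 78.4 FPKM in those labelled H3.3 and H3.2 mRNA. Neither passed 4-fold in any comparison made.

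Taf7l, a paralog of Taf7 known from male germ cells, was the member highest in the knockdown against both controls. It was listed at 0 in the untreated, luciferase and H3.3 mRNA libraries and stood at 23.9 FPKM in the knockdown and at 4.96 FPKM in the library labelled H3.2 mRNA. No fold is given against a listed 0, and with a pseudocount of 10 the difference on the log2 scale was 1.76, under the mark. Taf7 itself, which regulates the activity of Taf1, stood at 569 FPKM untreated, 396 FPKM with luciferase, 225 FPKM in the knockdown, and 214 and 195 FPKM in those labelled H3.3 and H3.2 mRNA. It was highest in the untreated library and nearly level in the 3 libraries with the knockdown. Taf9, a histone-fold TAF that pairs with Taf6, stood at 1213 FPKM untreated, 1356 FPKM with luciferase, 2946 FPKM in the knockdown, and 2340.4 and 1353 FPKM in those labelled H3.3 and H3.2 mRNA, highest in the knockdown. Its paralog Taf9b stood at 7.28 FPKM untreated, 1.82 FPKM with luciferase, 1.93 FPKM in the knockdown, and 1.90 and 0 FPKM in those labelled H3.3 and H3.2 mRNA, low throughout. Taf6 stood at 1219.6 FPKM untreated, 643 FPKM with luciferase, 588 FPKM in the knockdown, and 588 and 401 FPKM in those labelled H3.3 and H3.2 mRNA, highest in the untreated library.

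Taf11, which pairs with Taf13, stood at 776 FPKM untreated, 510.3 FPKM with luciferase, 1198 FPKM in the knockdown, and 1066 and 735 FPKM in those labelled H3.3 and H3.2 mRNA, and Taf13 at 229 FPKM untreated, 381 FPKM with luciferase, 309.6 FPKM in the knockdown, and 410.4 and 321 FPKM in those labelled H3.3 and H3.2 mRNA. Taf12, the histone-fold partner of Taf4, stood at 126 FPKM untreated, 347 FPKM with luciferase, 458 FPKM in the knockdown, and 233 and 204 FPKM in those labelled H3.3 and H3.2 mRNA. Taf8 and Taf10, which enter TFIID together, differed in level: Taf8 stood at 233 FPKM untreated, 249 FPKM with luciferase, 136 FPKM in the knockdown, and 348 and 249 FPKM in those labelled H3.3 and H3.2 mRNA, lowest in the knockdown, and Taf10 at 30.2 FPKM untreated, 13.8 FPKM with luciferase, 13.0 FPKM in the knockdown, and 3.05 and 11.2 FPKM in those labelled H3.3 and H3.2 mRNA. None of these 5 genes was called in the knockdown. The TAFs of SL1, which serves polymerase I, were not called in any comparison made. Taf1b stood at 163 FPKM untreated, 233 FPKM with luciferase, 118 FPKM in the knockdown, and 242 and 185 FPKM in those labelled H3.3 and H3.2 mRNA, Taf1c at 41.7 FPKM untreated, 148 FPKM with luciferase, 110.4 FPKM in the knockdown, and 382 and 121 FPKM in those labelled H3.3 and H3.2 mRNA and Taf1d at 633 FPKM untreated, 879 FPKM with luciferase, 777 FPKM in the knockdown, and 723 and 511 FPKM in those labelled H3.3 and H3.2 mRNA.

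**Figure D3:**
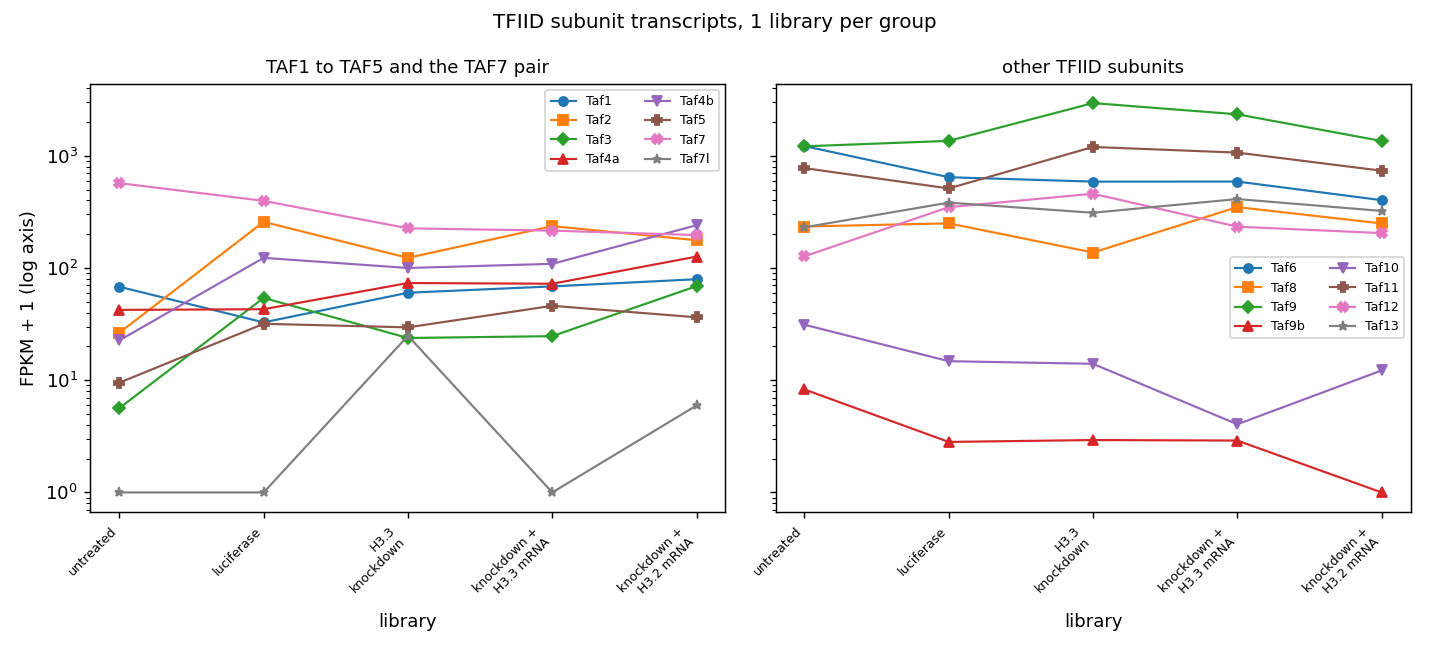
FPKM + 1 (log axis) of 16 TFIID subunits in the 5 libraries, 1 library per point, with lines that only join the points of a gene. Taf2, Taf3, Taf4b and Taf5 are lowest in the untreated library, and Taf7l is above 0 only in the knockdown and H3.2 mRNA libraries.

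Taf5l and Taf6l, the TAF-like subunits of the SAGA coactivator, and Taf15, an RNA-binding protein, are not core TFIID subunits. Taf5l stood at 425 FPKM untreated, 217 FPKM with luciferase, 142 FPKM in the knockdown, and 352 and 173 FPKM in those labelled H3.3 and H3.2 mRNA, lowest in the knockdown. Taf6l was listed at 0 in the untreated and H3.3 mRNA libraries and stood at 49.6 FPKM in the luciferase library, 21.3 FPKM in the knockdown, with the library labelled H3.2 mRNA at 11.6 FPKM. Taf15 did not exceed 16.8 FPKM. Of the 6 pairwise comparisons Taf6l was called in 4, of which 3 held a listed 0, and the other was H3.2 mRNA against luciferase.

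Among TFIIA, TFIIB, TFIIE, TFIIF and TFIIH, only Gtf2a1l passed the mark against both controls. Gtf2a1l, a TFIIA subunit of germ cells, stood at 5.84 FPKM untreated and 3.33 FPKM with luciferase, was listed at 0 in the knockdown and in the library labelled H3.3 mRNA, and stood at 3.06 FPKM in that labelled H3.2 mRNA. At such levels the call rests on a few FPKM, and the mark was missed with a pseudocount of 10 (-0.66 and -0.41) and, against luciferase, with quantile normalization (-1.38). Its widely expressed paralog Gtf2a1 stood at 20.03 FPKM untreated, 48.2 FPKM with luciferase, 12.5 FPKM in the knockdown, and 18.7 and 62.4 FPKM in those labelled H3.3 and H3.2 mRNA, lowest in the knockdown, and the partner subunit Gtf2a2 at 1263 FPKM untreated, 329 FPKM with luciferase, 457 FPKM in the knockdown, and 400.3 and 158 FPKM in those labelled H3.3 and H3.2 mRNA, highest in the untreated library. Gtf2b, TFIIB itself, stood at 414 FPKM untreated, 298 FPKM with luciferase, 576 FPKM in the knockdown, and 176 and 159 FPKM in those labelled H3.3 and H3.2 mRNA, highest in the knockdown. TFIIF pairs Gtf2f1 with Gtf2f2. Gtf2f1 stood at 3121 FPKM untreated, 2271 FPKM with luciferase, 1510.3 FPKM in the knockdown, and 2860.4 and 2684 FPKM in those labelled H3.3 and H3.2 mRNA, lowest in the knockdown, and Gtf2f2 at 714 FPKM untreated, 1155 FPKM with luciferase, 1499 FPKM in the knockdown, and 948 and 565 FPKM in those labelled H3.3 and H3.2 mRNA, highest in it. Their ratio was 1.007 in the knockdown and between 1.97 and 4.75 in the other 4 libraries. TFIIE pairs Gtf2e1, at 241 FPKM untreated, 83.2 FPKM with luciferase, 88.3 FPKM in the knockdown, and 203 and 258 FPKM in those labelled H3.3 and H3.2 mRNA, with Gtf2e2, at 184 FPKM untreated, 242 FPKM with luciferase, 327 FPKM in the knockdown, and 312 and 287 FPKM in those labelled H3.3 and H3.2 mRNA, and that ratio was 0.270 in the knockdown, 0.344 in the luciferase library and from 0.652 to 1.31 in the others.

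TFIIH opens DNA at the promoter and acts in nucleotide excision repair. Gtf2h1 stood at 602 FPKM in untreated embryos, 287 FPKM in those with luciferase, 137 FPKM in the knockdown, 341 FPKM in the library labelled H3.3 mRNA and 314 FPKM in that labelled H3.2 mRNA. It was lowest in the knockdown, -2.13 from the untreated and -1.06 from the luciferase library, and the former missed 4-fold with upper-quartile scaling (-1.81) and quantile normalization (-1.79). Gtf2h4 stood at 301 FPKM untreated, 554 FPKM with luciferase, 739 FPKM in the knockdown, and 254 and 755 FPKM in those labelled H3.3 and H3.2 mRNA, and Gtf2h5, the smallest subunit, at 1114 FPKM untreated, 1063 FPKM with luciferase, 888 FPKM in the knockdown, and 444 and 598 FPKM in those labelled H3.3 and H3.2 mRNA. For Gtf2h2 and Gtf2h3 the knockdown lay between the controls, at 547 and 292 FPKM. Of the TFII-I family, which are sequence-specific regulators rather than basal factors, Gtf2ird1 stood at 61.9 FPKM untreated, 303 FPKM with luciferase, 47.6 FPKM in the knockdown, and 140 and 156 FPKM in those labelled H3.3 and H3.2 mRNA. Gtf2ird2 was listed at 0 in the untreated and knockdown libraries and stood at 16.9 FPKM in the luciferase library, 39.0 FPKM in that labelled H3.3 mRNA and 20.7 FPKM in that labelled H3.2 mRNA. Gtf2i stood at 78.2 FPKM untreated, 245 FPKM with luciferase, 173 FPKM in the knockdown, and 237 and 299 FPKM in those labelled H3.3 and H3.2 mRNA. These 3 genes were thus lower in the knockdown than in the luciferase library, and 2 of them passed 4-fold.

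TFIIIA, encoded by Gtf3a, is the factor of the 5S ribosomal RNA gene. Gtf3a stood at 271 FPKM in untreated embryos, 195 FPKM in those with luciferase, 700 FPKM in the knockdown, 310.3 FPKM in the library labelled H3.3 mRNA and 213 FPKM in that labelled H3.2 mRNA. The knockdown was the highest library, 1.36 and 1.84 above the controls, under 4-fold. TFIIIC binds transfer RNA genes and helps to bring polymerase III there. Its DNA-binding subunit Gtf3c1 stood at 40.4 FPKM untreated, 89.8 FPKM with luciferase, 53.7 FPKM in the knockdown, and 196 and 68.1 FPKM in those labelled H3.3 and H3.2 mRNA, Gtf3c4 at 28.7 FPKM untreated, 85.8 FPKM with luciferase, 32.4 FPKM in the knockdown, and 111 and 109 FPKM in those labelled H3.3 and H3.2 mRNA and Gtf3c5 at 52.6 FPKM untreated, 78.5 FPKM with luciferase, 89.3 FPKM in the knockdown, and 206 and 81.0 FPKM in those labelled H3.3 and H3.2 mRNA. In these 3 the untreated library was lowest and the H3.3 mRNA library highest. Gtf3c6, the smallest TFIIIC subunit, stood at 346 FPKM untreated, 119 FPKM with luciferase, 312 FPKM in the knockdown, and 43.0 and 134 FPKM in those labelled H3.3 and H3.2 mRNA, lowest in the library labelled H3.3 mRNA, -2.83 from the knockdown. Gtf3c2 and Gtf3c3 stood at 217 and 87.7 FPKM in the knockdown, between their levels in the controls.

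For the knockdown against luciferase, short and long transcripts of these genes mostly differed in direction, which was less so against the untreated library. The longest annotated transcript of each gene (GENCODE M21) ranged from 601 bases for Polr2k to 9216 bases for Polr1a. Across the 72 genes the Spearman rank correlation of length with the difference was -0.15 when the knockdown was set against untreated embryos and -0.49 when set against luciferase, beside -0.10 and -0.24 over 12992 genes. For H3.3 mRNA against the knockdown it was 0.51 beside 0.29, and for H3.2 mRNA against the knockdown 0.63 beside 0.35. The points share their libraries, the comparisons share the knockdown, and genes are not independent replicates, so these are descriptions. With a mean of 50 FPKM or more, the value against the luciferase library was -0.55 for 60 members and -0.39 for all 6471. Against the untreated library it was then -0.17 beside -0.20. For H3.3 and H3.2 mRNA against the knockdown, this filter gave 0.55 beside 0.42 and 0.66 beside 0.51. In the shortest 18 members, 601 to 1933 bases, 14 were higher in the knockdown than in the luciferase library, with a median of 0.88. In the longest 18, 4281 to 9216 bases, 14 were lower, with a median of -0.57. Against the untreated library those medians were 0.56 and 0.04.

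The knockdown was the lowest of the 5 libraries at 14 of 72 members (19.4%, beside 20.4% of all genes) and the highest at 18 (25%, beside 19%), so neither share departs far from the background. The members lowest in the knockdown had a median length of 3846 bases, beside 4075 bases over all genes lowest in it, and included Polr1a, Polr1b, Polr2a, Polr2b, Polr3a, Polr3f and Polr3g, and those highest in it had a median of 1799 bases, beside 2180 bases over all such genes, and included Polr1d, Polr1e, Polr2e, Polr2g, Polr2h, Polr2i, Polr2j, Polr2k and Polr2l. With the length trend over all genes removed, Polr1a stood at -3.22 and -3.08 from the untreated and luciferase libraries and Polr2a at -2.27 and -1.98. Polr1b, Polr2b, Polr3a and Polr3g kept negative values against both. Of the small subunits, Polr2h, Polr2i and Polr2j turned to -0.0045, -0.17 and -0.28 against the untreated library, and Polr2g, Polr2k and Polr2l stayed above 0 against both. RNA quality has no measure in these files, and its part in the relation with length was not tested.

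**Figure D4:**
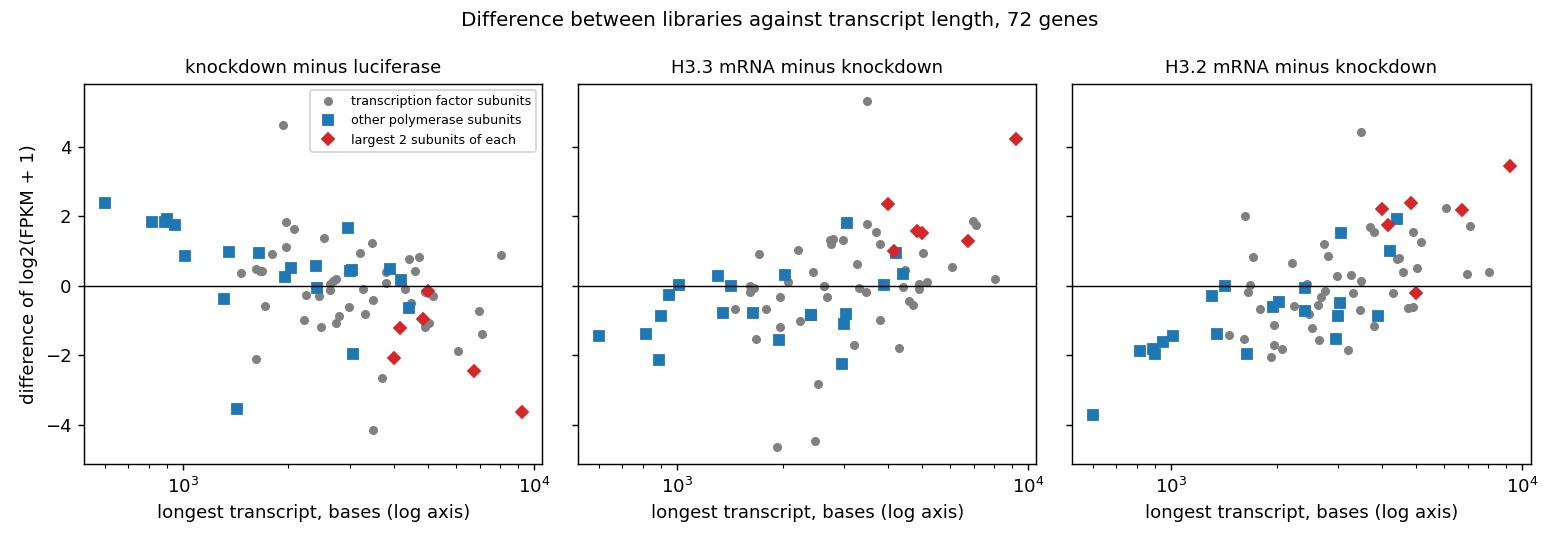
Difference of log2(FPKM + 1) against the longest transcript (bases, log axis) for the 72 genes in 3 comparisons, 1 library per group and no error. Diamonds are the largest and second-largest subunits of each polymerase, squares the other polymerase subunits and dots the transcription factor subunits. For the knockdown against luciferase, 14 of the 18 shortest genes lie above 0 and 14 of the 18 longest below it, and the other panels, which share the knockdown library, slope the other way.

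Against single controls, more members were called. Against the untreated library, 6 of 72 passed the mark upward in the knockdown (8.33%, background 16.8%) and 4 lower (5.56%, background 15.6%), with 8 and 2 under upper-quartile scaling and 6 and 2 under quantile normalization. The higher ones were Polr3b, Taf2, Taf3, Taf4b, Taf6l and Taf7l, and the lower ones Polr1a, Polr2a, Gtf2a1l and Gtf2h1. Against the luciferase library, 2 were higher (2.78%, background 9.74%), Polr2k and Taf7l, and 7 lower (9.72%, background 18.9%), which were Polr1a, Polr1b, Polr2a, Polr3gl, Gtf2a1l, Gtf2ird1 and Gtf2ird2. Quantile normalization gave 3 and 5. The median difference of the members was 0.12 and 0.07, beside 0.00 and -0.12 over all genes, and the second turned to -0.17 with upper-quartile scaling and -0.15 with the length trend removed. The controls differed from each other at 8 members, all higher in the luciferase library (11.1%, background 23.5%) and none lower (background 13.4%), where quantile normalization gave 8 and 2. These were Polr3b, Polr3gl, Taf2, Taf3, Taf4b, Taf6l, Gtf2ird1 and Gtf2ird2, with a median over the 72 members of 0.02. Polr1a, Polr1b, Polr2a, Polr2b and Polr3a differed by -0.14 to 0.48 between the controls on the deposited scale and by 0.46 to 1.08 with upper-quartile scaling, under which Polr2b turned from -0.14 to 0.46.

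The mRNA libraries were then set against the knockdown, which both comparisons share. In the library labelled H3.3 mRNA, 3 members passed the mark upward (4.17%, background 16.4%) and 5 lower (6.94%, background 10.1%), and upper-quartile scaling gave 4 and 4. Polr1a and Polr1b were higher by 4.22 and 2.35, and Gtf2ird2 was listed at 0 in the knockdown. Polr2g, Polr3k, Gtf3c6, Taf6l and Taf7l were the lower ones, the last pair listed at 0 in the library labelled H3.3 mRNA. Polr2g missed the mark with upper-quartile scaling (-1.94), quantile normalization (-1.85) and the length trend removed (-1.01), and Polr3k (-1.99), Taf6l (-1.65) and Taf7l (-1.76) missed it with a pseudocount of 10. Polr2a was 1.30 higher, under 4-fold, at less than its level in either control. In the library labelled H3.2 mRNA, 7 were higher (9.72%, background 19.5%) and 2 lower (2.78%, background 9.11%), and upper-quartile scaling gave 11 and 1 and quantile normalization 6 and 4. The higher ones were Polr1a (3.45), Polr1b (2.20), Polr2a (2.17), Polr3a (2.39), Gtf2a1 (2.24), and Gtf2a1l and Gtf2ird2, which were at 0 in the knockdown. Polr2k at -3.73 and Taf7l at -2.06 were the lower ones. With a pseudocount of 10, Gtf2a1 (1.69), Gtf2a1l (0.39), Gtf2ird2 (1.62), Polr2a (1.82) and Taf7l (-1.18) missed the mark. Gtf2a1 (1.94) and Gtf2a1l (1.16) missed it with quantile normalization, and Taf7l (-1.78) with upper-quartile scaling. With the length trend removed, 3 of the 9 remained past 4-fold, and Polr1a at 2.47 was among them. The median over all members was 0.00 for the library labelled H3.3 mRNA and -0.20 for that labelled H3.2 mRNA, beside 0.00 and 0.15 over all genes, and the second turned to 0.11 with upper-quartile scaling.

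Of the 6 pairs of libraries compared, the one that shares the source name SCNT had the fewest members called (3), whereas the pairs that share NT, knockdown against untreated and H3.3 mRNA against the knockdown, had 10 and 8. Over all genes the share called was also lowest in the SCNT pair, at 20.3% against 32.5% and 26.4% in those NT pairs. The remaining NT pair, H3.3 mRNA against untreated, was not compared. Between H3.2 mRNA and luciferase, 1 member was higher (1.39%, background 10.4%), Taf7l, and 2 were lower (2.78%, background 9.84%), Polr3gl and Taf6l. Upper-quartile scaling gave 1 and 1, and quantile normalization 0 and 2. Taf7l was listed at 0 in the luciferase library and Polr3gl in that labelled H3.2 mRNA. Taf6l stood at 49.6 FPKM with luciferase and 11.6 FPKM in the library labelled H3.2 mRNA, so its call holds no listed 0. That call was lost with upper-quartile scaling (-1.97), with the length trend removed (-1.89) and with a pseudocount of 10 (-1.46). Of the 72 members, 57 lay within 2-fold (79.2%, beside 57.1% of all genes), and the interquartile range of the difference was 0.68, against 1.43 to 1.97 in the other 5 comparisons. Over all genes that range was also narrowest in this pair, at 1.63 against 2.10 to 2.89. In the other 5 comparisons, too, the share within 2-fold was larger for the members than for all genes. These shares of all genes were not matched for level. This pair differs in the knockdown and in the mRNA given. Both SCNT libraries lay below all 3 NT libraries at 14 members (19.4%, background 8.48%) and above them at 5 (6.94%, background 11.9%). The 14 were Polr2c, Polr2d, Polr2h, Polr2i, Polr2j, Polr2k, Polr3d, Taf9b, Taf11, Taf15, Gtf2a2, Gtf2h2, Gtf3a and Gtf3c2, and the 5 were Taf3, Taf4b, Gtf2a1, Gtf2i and Gtf2ird1. Polr1a, Polr2a and Polr3a are in neither set. Both sets and their backgrounds are on the deposited scale only, and these backgrounds were not matched for level. With upper-quartile scaling the luciferase library stood above the untreated one for Polr3d (0.45), Gtf3a (0.12) and Taf15 (0.45), which then leave the 14. The knockdown and untreated libraries share the source name NT, and between them Polr1a and Polr2a were among the 10 members past 4-fold. The losses of Polr2a under other settings are given beside its values. These libraries also differ in treatment and in oocyte markers, and the part of the source name was not tested.

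Other genes of the same machinery that the name rule leaves out were taken from a list of 75, all of which were measured. The knockdown stood 4-fold or more above the untreated library at 5 and below it at 8, beside 16.8% and 15.6% of all genes, and for the luciferase library these numbers were 4 and 6, beside 9.74% and 18.9%. In 3 of the 75 the knockdown was at least 4-fold lower than each control and in 1 at least 4-fold higher, beside 6.35% and 4.98% of all genes. As shares of 75 (6.67% higher and 10.7% lower, 5.33% higher and 8% lower, 1.33% higher and 4% lower) all 6 counts lay under the background. This background was not matched for level. Over genes that averaged 50 FPKM or more, the shares called in either direction were smaller. They were 21.3% against the untreated library, 15.4% against luciferase and 5.76% against each control. Cd3eap, a polymerase I subunit that pairs with Polr1e, stood at 219 FPKM untreated, 122.9 FPKM with luciferase, 24.4 FPKM in the knockdown, and 169.6 and 108 FPKM in those labelled H3.3 and H3.2 mRNA. Ccnt1, the cyclin of the elongation kinase P-TEFb, stood at 82.1 FPKM untreated, 109 FPKM with luciferase, 17.2 FPKM in the knockdown, and 131 and 47.2 FPKM in those labelled H3.3 and H3.2 mRNA. In the kinase module of Mediator, the kinase Cdk8 stood at 374 FPKM untreated, 529.7 FPKM with luciferase, 78.0 FPKM in the knockdown, and 442 and 349 FPKM in those labelled H3.3 and H3.2 mRNA. Its cyclin Ccnc stood at 12.5 FPKM untreated, 62.1 FPKM with luciferase, 309 FPKM in the knockdown, and 153 and 199 FPKM in those labelled H3.3 and H3.2 mRNA. Cdk8 was thus lowest and Ccnc highest in the knockdown. Of 6 other polymerase I genes 1 was lower, of 13 elongation factors 1 was lower, of 30 Mediator genes 1 was lower and 1 higher, and none of 13 further polymerase II initiation genes, 10 polymerase III genes and 3 mitochondrial transcription genes was called against both controls. Tbp, the TATA-binding protein common to all 3 systems, stood at 162 FPKM untreated, 189 FPKM with luciferase, 250.1 FPKM in the knockdown, and 299 and 149 FPKM in those labelled H3.3 and H3.2 mRNA.

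Some values can mix reads of neighbours. On GRCm38 the exons of 23 of the 72 genes share bases with exons of another gene, and in 9 the shared part is at least 10% of the exon length. Taf9 shares 73.8% with Ak6 on the same strand, Gtf3a 59.1% with Mtif3 on the opposite strand and Taf10 45.9% with Ilk on the opposite strand. The others are Gtf3c2, Polr2c, Polr2i, Polr2j, Taf1c and Taf6. The sources used here do not state whether counting used strand, so reads of Gtf3a and Mtif3 and of such pairs cannot be told apart. Polr1a shares 1.56% of its exon bases with an antisense gene, and Polr2a, Polr1b and Taf7l share none.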

How the data were processed

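The authors aligned single reads of 51 bases from Illumina TruSeq libraries with TopHat and estimated FPKM with Cufflinks on mm9, tools and build being named in the submitters' processing notes without versions and the reads in the labels' protocols. The deposited tables give an FPKM for all of the 22026 symbols, 1 table per library. FPKM divides by length and library total, so a shift in abundant transcripts shifts all others. Depth is unknown: below 20 FPKM no step worth 1 read was found, the fullest bin of 0.1 log2 units holding 3.92% of 1453 genes. Libraries were grouped by their treatment labels, the last by its title. Differences of log2(FPKM + 1) over the 13144 genes that averaged 1 FPKM or more were called at 4-fold, with no test. Members and lists were chosen with earlier results of these data known. Named were the 2 largest subunits of each polymerase, members 4-fold from both controls, the top 4 and bottom 4 of the other comparisons, shared subunits and paralog pairs. Members were described by role, and of the other 75 genes those 4-fold from each control were named. Lengths (98.8% of genes) came from GENCODE M21. A lowess fit (fraction 0.3, statsmodels 0.14.6) on log2 length gave the trend removed as an alternative. Scripts (pandas 2.3.3) were tested on simulated data. Other alternatives were pseudocounts, filters, scalings and a 2-fold mark. The values of 1 member, counted in the totals, are not reported here.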

Additional observations from a re-analysis of the deposited data

How the results depend on the processing

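The median over the members for luciferase against untreated was 0.61 with upper-quartile scaling. The members' median changed sign in 3 comparisons. For the knockdown against luciferase (0.07) it was -0.17 with upper-quartile scaling and -0.15 with the length trend removed. For H3.2 mRNA against the knockdown (-0.20) it was 0.11 with upper-quartile scaling, 0.0073 with quantile normalization and 0.0185 with the length trend removed, and for H3.2 mRNA against luciferase (-0.07) 0.0827 and 0.0165 with the last pair of settings. Upper-quartile scaling moved the median of all genes for luciferase against untreated from 0.02 to 0.60, and for the knockdown against luciferase to -0.39, for H3.3 mRNA against the knockdown to 0.12 and for H3.2 mRNA against the knockdown to 0.47. The numbers of members past the mark were 10 (knockdown against untreated), 9 (knockdown against luciferase), 8 (luciferase against untreated), 8 and 9 (H3.3 and H3.2 mRNA against the knockdown), 3 (H3.2 mRNA against luciferase) and 4 (knockdown against each control). In that order a 2-fold mark gave 36, 27, 32, 30, 36, 15 and 13 of 72, while over all genes it called 54.7%, 54.1%, 60.0%, 51.1%, 54.9%, 42.9% and 25.6%. A mean of at least 50 FPKM, chosen after the data were seen, gave 6, 5, 4, 5, 5, 0 and 2 of 60, beside 21.3%, 15.4%, 21.6%, 13.8%, 14.6%, 6.89% and 5.76% of all genes. A pseudocount of 10 gave 3 (knockdown against untreated), 4 (knockdown against luciferase), 5 and 4 (H3.3 and H3.2 mRNA against the knockdown), 0 (H3.2 mRNA against luciferase) and 1 (knockdown against each control, Polr1a). Over genes above 0 in all libraries the numbers were 5 (knockdown against luciferase), 5 (luciferase against untreated), 5 (H3.3 mRNA against the knockdown), 0 (H3.2 mRNA against luciferase) and 2 (knockdown against each control), since members with a listed 0 leave. Upper-quartile scaling gave 13 for luciferase against untreated, quantile normalization 2 for the knockdown against each control, and removal of the length trend 3 for H3.2 mRNA against the knockdown. The causes of these last changes were not tested. Of 47 called gene values, 25 fell under the mark with a pseudocount of 10, 11 with the length trend removed, 9 with quantile normalization and 5 with upper-quartile scaling, and none of them changed sign. No library could be left out, since each group has 1. No paired analysis was possible because each group has 1 library and the labels give no replicate numbers. Depth is unknown, so no limit of detection can be given, and a listed 0 can be a failed estimate.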
